A study of Homo sapiens with 15 samples.

Results

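Collagens are the main structural proteins of the matrix outside cells. They were followed here in BEAS-2B cells, an immortalized line of human bronchial epithelial cells, after exposure to PM2.5, the fine particulate matter of polluted air. All 44 genes that encode a collagen chain, those whose symbol reads COL, a number, A and a number, were taken from the 58219 genes of the count table. The rule used the symbol and no measured value, although the family was picked for description with earlier results of these data known. RNA was sequenced from 15 libraries in 5 conditions, with 3 independent experiments each. In the single-exposure protocol, cells received vehicle or PM2.5 at 1 or 30 µg/cm2 and were collected after 24 h. In the repeated protocol, cells received vehicle or 1 µg/cm2 of PM2.5 every day, with a wash between exposures. The labels give this protocol as 7 days, and the study's methods as 6 daily exposures with collection on day 7. The PM2.5 was extracted into water from filters that had sampled winter air in Beijing. All conditions shared the same cell line, a serum-free bronchial epithelial growth medium and plates coated with collagen, so the cells lay on collagen that they had not made. Each condition thus represents 1 transformed line, without the fibroblasts that make most collagen in the airway wall.

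Every collagen is a trimer of chains that wind around each other in a triple helix. Fibrillar collagens (types I, II, III, V, XI, XXIV and XXVII) form the fibrils of connective tissue, and type V controls fibril diameter. Type IV collagen forms the sheet-like network of basement membranes, on which epithelial cells sit. Types VII, XV and XVIII belong to the zone around that sheet, and type XVII spans the membrane of basal epithelial cells and ties them to it. Type VI forms beaded filaments, type VIII short chain networks, and the FACIT collagens (fibril-associated collagens with interrupted triple helices, such as types IX, XII and XVI) sit on the surface of fibrils.

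Of the 44 chains, 32 passed edgeR's filter on low counts and were tested, which is 72.7% against 30.2% of all genes. The other 12 had at most 11 counts in any library. Of these, COL9A1 had 0 counts in all libraries, COL19A1 and COL6A5 had at most 1, and COL10A1, COL13A1, COL20A1, COL22A1, COL23A1, COL24A1, COL26A1, COL28A1 and COL6A6 had between 4 and 11 in their highest library. Depth was 21460981 to 34724765 counted reads per library, at which the floor of 3 counts equals 0.0866 to 0.149 CPM (counts scaled to a common library size, with the trimmed mean of M-values as scaling factor). This floor covers counting error only. In the 24-h protocol, experiment 2 stood apart: the counts of experiments 1 and 3 of a condition differed by 4.44 to 18.1 times the sampling noise (chi-square per degree of freedom), and experiment 2 differed from them by 76.6 to 181 times. Results that rest on it are also given without it. Epithelial marker genes were expressed in every library, with summed levels of 1283 to 3629 CPM over 10 genes. The 5 leukocyte markers summed to 4.60 to 23.7 CPM, on average mostly from CD14 (up to 515 counts in a library), with ITGAM at up to 74 counts and PTPRC at up to 2. The 5 endothelial markers summed to 0.635 to 3.65 CPM, on average mostly from KDR (up to 94 counts), with PECAM1, CDH5 and VWF at up to 8. Mesenchymal markers were also present, at 244 to 878 CPM summed over 12 genes, most of it from VIM.

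The level of a chain is given as FPKM, the CPM per kilobase of exon length, which allows different chains to be set side by side. COL8A1, a chain of the short chain network, had the highest mean level over all libraries at 37.8 FPKM. COL6A1 of the beaded filament followed at 17.3 FPKM. Next came COL17A1, the transmembrane collagen of hemidesmosomes, at 13.0 FPKM, COL4A4 at 12.4 FPKM and COL7A1, the chain of anchoring fibrils, at 10.1 FPKM. COL4A2 had 9.64, COL4A5 7.53 and COL4A3 4.98 FPKM. All 6 type IV chains lay between 3.13 and 12.4 FPKM, and theirs was the only class with every member above 1 FPKM. Among the 11 fibrillar chains, 5 were above 1 FPKM, with COL5A1 the highest at 4.12 FPKM. COL1A1, COL1A2 and COL3A1, the chains of the abundant collagens of fibroblasts, had 3.92, 1.67 and 1.019 FPKM. By mean FPKM, COL8A1 stood at the 93.1 percentile of the tested genes and COL3A1 at the 31.3 percentile.

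**Figure D1:**
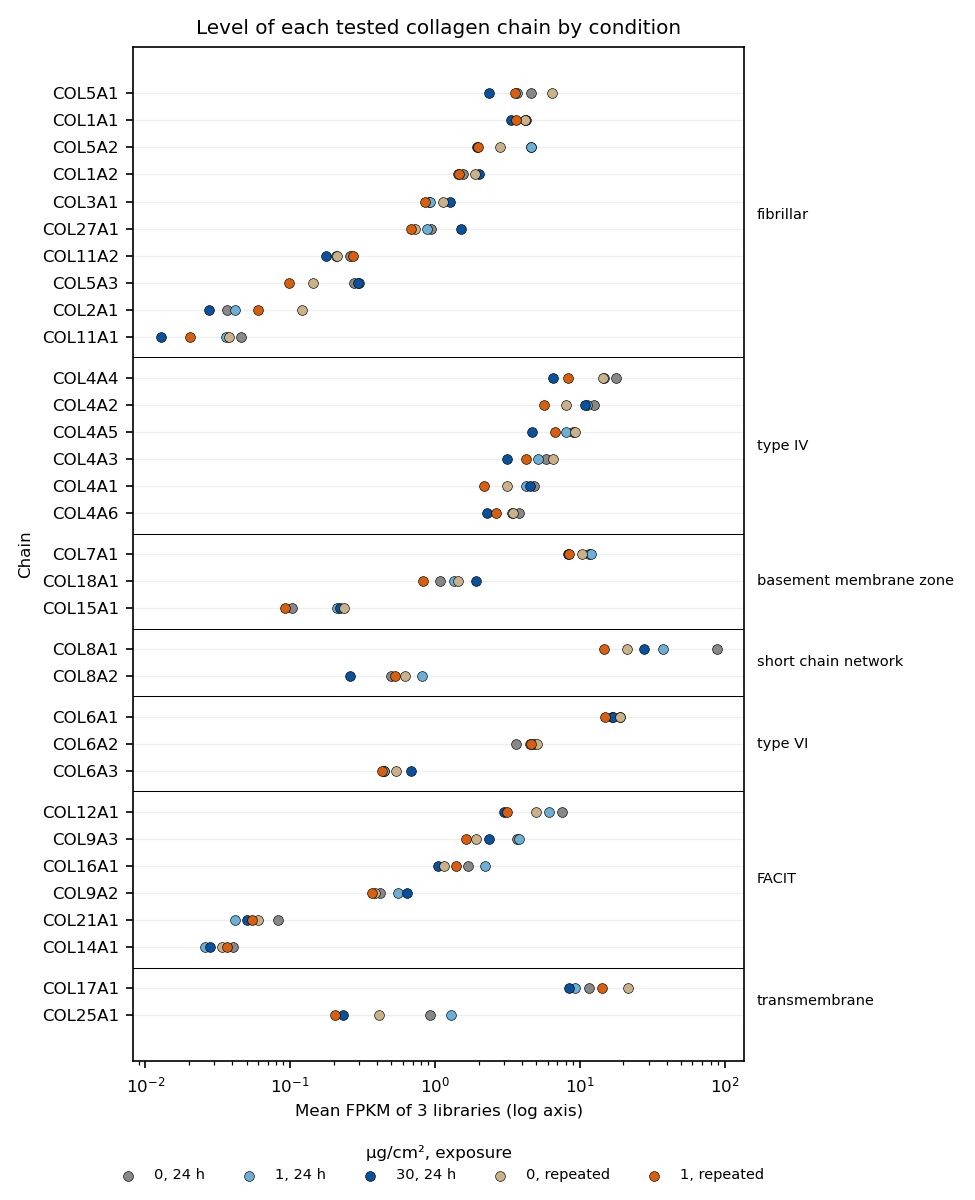
Mean level of the 32 tested chains in each condition, in FPKM on a log axis, grouped by class, with 1 point per condition (the mean of 3 libraries). COL8A1 ranges from 14.6 FPKM after repeated PM2.5 to 88.2 FPKM in the 24-h control.

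The order of the levels differed between the controls of both protocols. In the 24-h control, COL8A1 stood at 88.2 ± 49.05 FPKM (SD, n = 3), COL4A4 at 17.9 ± 2.70 and COL6A1 at 16.7 ± 3.82. COL4A2 at 12.5 ± 1.84, COL17A1 at 11.6 ± 3.77 and COL7A1 at 11.6 ± 2.30 followed, and of the neighbours below COL8A1 only COL6A1 and COL4A2 differed by more than both SDs. In the repeated control, COL17A1 at 21.4 ± 0.532 and COL8A1 at 21.1 ± 0.665 FPKM were level within their SD, with COL6A1 at 18.8 ± 0.524 and COL4A4 at 14.6 ± 0.744 below them.

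All chains together took 0.186 ± 0.0409% of the counted reads in the 24-h control (SD, n = 3). Their share was 0.137 ± 0.0303% after 1 µg/cm2 and 0.0988 ± 0.0132% after 30 µg/cm2 for 24 h. In the repeated protocol it was 0.134 ± 0.00395% in the control and 0.0982 ± 0.00274% after PM2.5. No library of the exposed group overlapped its control at 30 µg/cm2 (0.0839 to 0.109% against 0.142 to 0.224%) or after repeated exposure (0.0956 to 0.101% against 0.129 to 0.136%), while the ranges at 1 µg/cm2 for 24 h overlapped. With 3 libraries against 3, an exact permutation test cannot go below p = 0.10, so no p is given. COL8A1 alone made up 39.9 ± 17.0% of the collagen reads in the 24-h control, from 20.3% in experiment 2 to 51.0% in experiment 3, against 15.5 ± 0.210% in the repeated control. Without COL8A1, the share was 0.107 ± 0.0121%, 0.103 ± 0.0171% and 0.0739 ± 0.00776% at 0, 1 and 30 µg/cm2 for 24 h, and 0.113 ± 0.00334% and 0.0833 ± 0.00370% at 0 and 1 µg/cm2 in the repeated protocol.

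**Figure D2:**
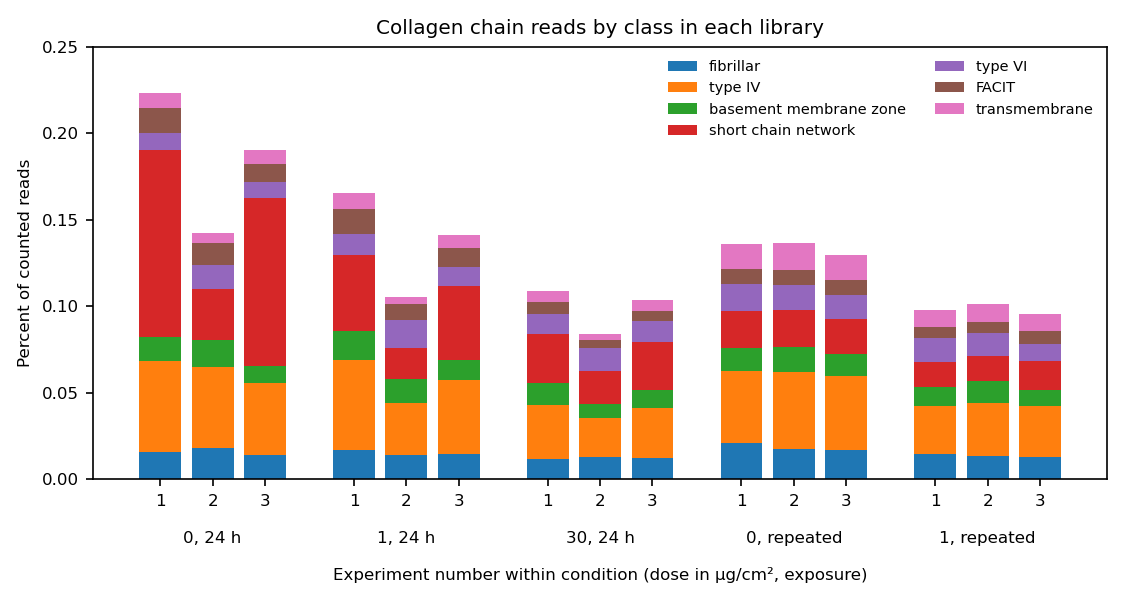
Reads of collagen chains as a percent of all counted reads in each of the 15 libraries, stacked by class, with experiment numbers on the horizontal axis (COL26A1 and COL28A1, with almost no reads, are left out). The short chain network, nearly all COL8A1, is 0.109% of reads in experiment 1 of the 24-h control and 0.0294% in experiment 2. Type IV collagen is the largest class in every library except experiments 1 and 3 of the 24-h control and experiment 3 of 1 µg/cm2 for 24 h.

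Each exposed condition was compared with its control in one edgeR quasi-likelihood model over all 15 libraries. A gene was called where its p, adjusted by the Benjamini-Hochberg method over all 17599 tested genes, was under 0.05 and its log2 fold-change was 0.6 or more in either direction (1.5-fold). After 30 µg/cm2 for 24 h, 10 of 32 chains were called, which is 31.3% where 8.07% of all tested genes were called. COL18A1 was higher, and COL4A3, COL4A4, COL4A5, COL5A1, COL5A2, COL8A1, COL12A1, COL16A1 and COL25A1 were lower, 9 chains where 4.24% of all genes were called lower and 3.82% higher. The median log2 fold-change of the 32 chains was -0.48, against 0.03 over all tested genes, and 22 of the 32 were negative. In 11 chains, every exposed library lay below every control library, as did 11.1% of all tested genes. Since these are bulk samples, fewer cells of a kind and less RNA per cell cannot be told apart. The replicate number marks an experimental batch, and with it as a block within each protocol 13 chains were called (15.2% of all genes).

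After 1 µg/cm2 for 24 h, none of the 32 chains were called by edgeR's quasi-likelihood test, as 0.0625% of all genes were, and 3 chains had an unadjusted p under 0.05. DESeq2 and edgeR's likelihood ratio test also called 0 chains. With the replicate block, COL8A1 was called lower (0.420% of all genes). Between 30 and 1 µg/cm2, 8 chains were called (7.84% of all genes), and all 8 were lower at 30 µg/cm2 (4.22% of all genes were lower). With the block, 12 chains were called (15.6% of all genes). After repeated exposure, COL4A4 and COL5A1 were called, both lower, where 0.227% of all genes were called and 0.125% were lower. The median log2 fold-change was -0.43 against 0.01 over all tested genes, and 29 of 32 chains were negative. In 17 chains, all exposed libraries lay below all control libraries, against 21.6% of all tested genes. With the replicate block 6 chains were called (4.39% of all genes), all lower, namely COL4A3, COL4A4, COL5A1, COL12A1, COL15A1 and COL18A1. Without the libraries of 24-h experiment 2, 7 of 33 tested chains were called after repeated exposure (6.03% of all genes in that fit).

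**Figure D3:**
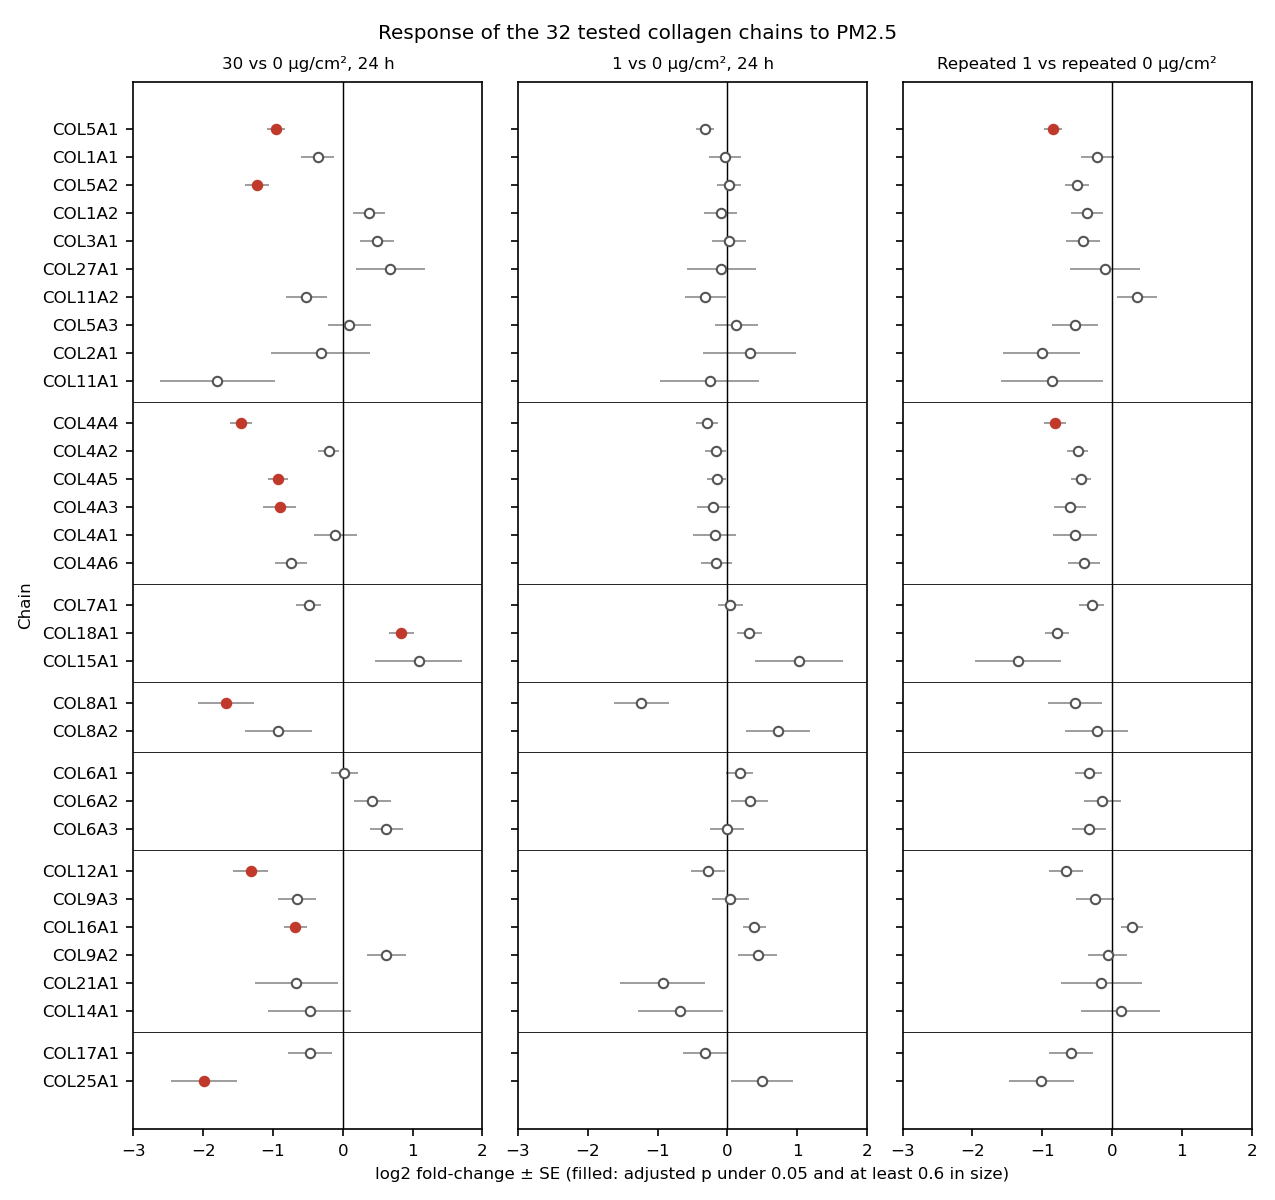
Log2 fold-change ± SE of the 32 tested chains after 30 µg/cm2 for 24 h, 1 µg/cm2 for 24 h and repeated 1 µg/cm2, each against its own control, grouped by class. Filled points are called chains: 10 in the left panel, 0 in the middle and 2 on the right, where 29 of 32 points lie left of 0.

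Epithelial markers moved in the same comparisons. Their summed level was 1283 to 1799 CPM after 30 µg/cm2 against 2383 to 3138 CPM in the 24-h control, and 4 of 10 were called lower. After repeated exposure it was 2027 to 2208 against 2922 to 3629 CPM, and 2 of 10 were called lower. The summed level of the mesenchymal markers was 412 to 617 against 564 to 878 CPM at 30 µg/cm2, where 1 of 12 was called higher and 2 were called lower. After repeated exposure it was 244 to 323 against 340 to 377 CPM, with 0 of 12 called in either direction. The part of these markers in the collagen results was not tested.

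Type IV collagen is built from 6 chains in pairs of genes that lie head to head and share the stretch between their starts. COL4A1 and COL4A2 on chromosome 13 form the ubiquitous network, COL4A3 and COL4A4 on chromosome 2 and COL4A5 and COL4A6 on chromosome X those of specialised basement membranes. The stretch between the starts is shown for each pair because both genes of a pair are read away from it. The sequences were taken from the RefSeq promoter table of GRCh38 and are printed on the plus strand, leaving out annotated exons. Capitals mark a GC box (GGGCGG) or a CCAAT box (CCAAT) on either strand; no TATA box (TATAAA) was found in them.

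COL4A1 and COL4A2, chr13:110307158-110307257: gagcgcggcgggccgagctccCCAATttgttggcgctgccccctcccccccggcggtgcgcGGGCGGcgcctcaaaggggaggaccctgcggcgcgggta

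COL4A4 and COL4A3, chr2:227164206-227164395: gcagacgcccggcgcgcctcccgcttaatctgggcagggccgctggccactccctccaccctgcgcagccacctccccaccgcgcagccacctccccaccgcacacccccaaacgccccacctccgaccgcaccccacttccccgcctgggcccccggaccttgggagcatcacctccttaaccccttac

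COL4A6 and COL4A5, chrX:108439498-108439747: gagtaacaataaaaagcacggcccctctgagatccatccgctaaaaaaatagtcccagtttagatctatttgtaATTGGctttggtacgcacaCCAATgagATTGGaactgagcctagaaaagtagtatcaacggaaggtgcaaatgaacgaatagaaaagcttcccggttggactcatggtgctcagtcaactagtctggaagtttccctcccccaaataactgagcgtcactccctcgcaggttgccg

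The starts of COL4A1 and COL4A2 lie 126 bases apart, those of COL4A4 and COL4A3 418 bases and those of COL4A6 and COL4A5 379 bases. The printed stretch of COL4A1 and COL4A2 holds 1 GC box and 1 CCAAT box and is 78.0% G and C, that of COL4A4 and COL4A3 holds neither box at 72.6% G and C, and that of COL4A6 and COL4A5 holds 3 CCAAT boxes at 46.0% G and C. A match is a description of these letters and not of binding. Over whole promoter windows of 300 bases (250 before and 50 after the start), 32 of the 44 chains had an entry. A GC box was in 18 of the 32 windows, against 45% of all 35116 windows, a CCAAT box in 10 against 34.6%, and a TATA box in 5 against 11.5%. The core of the antioxidant response element (TGACNNNGC) was in 2, those of COL4A5 and COL4A6, against 13.3% of all windows, the core of the xenobiotic response element (GCGTG) in 12 against 36.5%, and the AP-1 site (TGANTCA) in 0 against 7.71%. Windows of neighbouring genes overlap, so these counts hold some matches more than once.

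COL4A4 had the largest fall among the type IV chains. Its level was 191, 195 and 147 CPM in the 24-h controls (experiments 1, 2 and 3, the order used throughout), 173, 115 and 147 CPM after 1 µg/cm2 and 68.3, 60.3 and 64.8 CPM after 30 µg/cm2. The 30 µg/cm2 libraries lay below all others of the protocol, and those at 1 µg/cm2 overlapped the controls. Under the repeated protocol, COL4A4 stood at 139, 141 and 153 CPM in the controls and 75.6, 78.6 and 91.1 CPM after PM2.5, without overlap. It was 2.75-fold lower after 30 µg/cm2 (log2 fold-change -1.46 ± 0.16 (SE), n = 3 against 3, edgeR adjusted p = 7.0e-05) and 1.76-fold lower after repeated exposure (-0.82 ± 0.15, edgeR adjusted p = 0.0477). The repeated call was lost when any 1 of the 6 libraries of the repeated protocol was left out, and also without experiment 1 or 3 of any 24-h condition, at edgeR adjusted p-values of 0.0503 to 0.309. The log2 fold-change then ranged from -0.91 to -0.77.

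COL4A3, the partner of COL4A4, had 59.3, 60.6 and 41.0 CPM in the 24-h controls, 62.8, 34.1 and 43.0 CPM after 1 µg/cm2 and 35.04, 22.1 and 28.8 CPM after 30 µg/cm2. All libraries at 30 µg/cm2 were below the controls, and the 1.87-fold fall was called (-0.91 ± 0.23, edgeR adjusted p = 0.0241). This call was lost without control experiment 1 (edgeR adjusted p = 0.0713), control experiment 2 (0.0726) or exposed experiment 3 (0.0852). Its level in the repeated protocol was 49.9, 65.5 and 62.2 CPM in controls and 33.7, 40.0 and 43.1 CPM after PM2.5. The log2 fold-change of -0.60 ± 0.23 was not called in edgeR's main fit (edgeR adjusted p = 0.314). It was called with the replicate block (edgeR adjusted p = 0.0281) and in the fit without 24-h experiment 2. The FPKM of COL4A4 per FPKM of COL4A3 was 3.07 ± 0.190 in the 24-h control, 2.93 ± 0.340 after 1 µg/cm2 and 2.13 ± 0.365 after 30 µg/cm2 (SD, n = 3). It was 2.27 ± 0.295 in the repeated control and 1.94 ± 0.128 after repeated PM2.5.

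COL4A5 had 85.0, 77.9 and 72.0 CPM in the 24-h controls, 81.7, 55.7 and 73.4 CPM after 1 µg/cm2 and 46.7, 35.4 and 40.8 CPM after 30 µg/cm2. The groups at 0 and 30 µg/cm2 did not overlap, and the gene was 1.91-fold lower (-0.93 ± 0.14, edgeR adjusted p = 0.00102). Repeated exposure left it at 56.6, 60.9 and 59.5 CPM against 75.4, 83.6 and 82.3 CPM, again without overlap, at a log2 fold-change of -0.45 ± 0.14 (edgeR adjusted p = 0.223). COL4A6, its partner, had 42.7, 27.97 and 36.0 CPM in the 24-h controls and 23.5, 16.1 and 24.2 CPM after 30 µg/cm2. Its exposed libraries lay below all controls. COL4A6 was not called in edgeR's main fit, which has no block (log2 fold-change -0.74 ± 0.22, edgeR adjusted p = 0.0519). It was called with the replicate block (edgeR adjusted p = 0.000156), and also by DESeq2, by edgeR's likelihood ratio test and without 24-h experiment 2.

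COL4A1 and COL4A2 were not called in any PM2.5 comparison. COL4A2 had 119.6, 90.5 and 117 CPM in the 24-h controls and 95.7, 93.9 and 94.4 CPM after 30 µg/cm2, which overlapped (log2 fold-change -0.20 ± 0.15, edgeR adjusted p = 0.474). COL4A1 had 50.5, 26.1 and 42.7 CPM against 41.1, 26.5 and 43.6 CPM (-0.11 ± 0.31, edgeR adjusted p = 0.887). Experiment 2 was the lowest library of COL4A1 in each 24-h condition. After repeated exposure, both had all exposed libraries below all controls, COL4A2 at 53.0, 54.6 and 40.7 against 72.9, 71.3 and 64.4 CPM and COL4A1 at 18.9, 19.7 and 15.1 against 28.6, 26.2 and 23.1 CPM. Their log2 fold-changes were -0.49 ± 0.15 and -0.53 ± 0.31, under the threshold of 0.6. All 6 type IV chains had a negative log2 fold-change in all 3 comparisons with control, with medians of -0.82, -0.17 and -0.51 at 30 µg/cm2, 1 µg/cm2 and repeated 1 µg/cm2, and 3, 0 and 1 of the 6 were called lower.

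**Figure D4:**
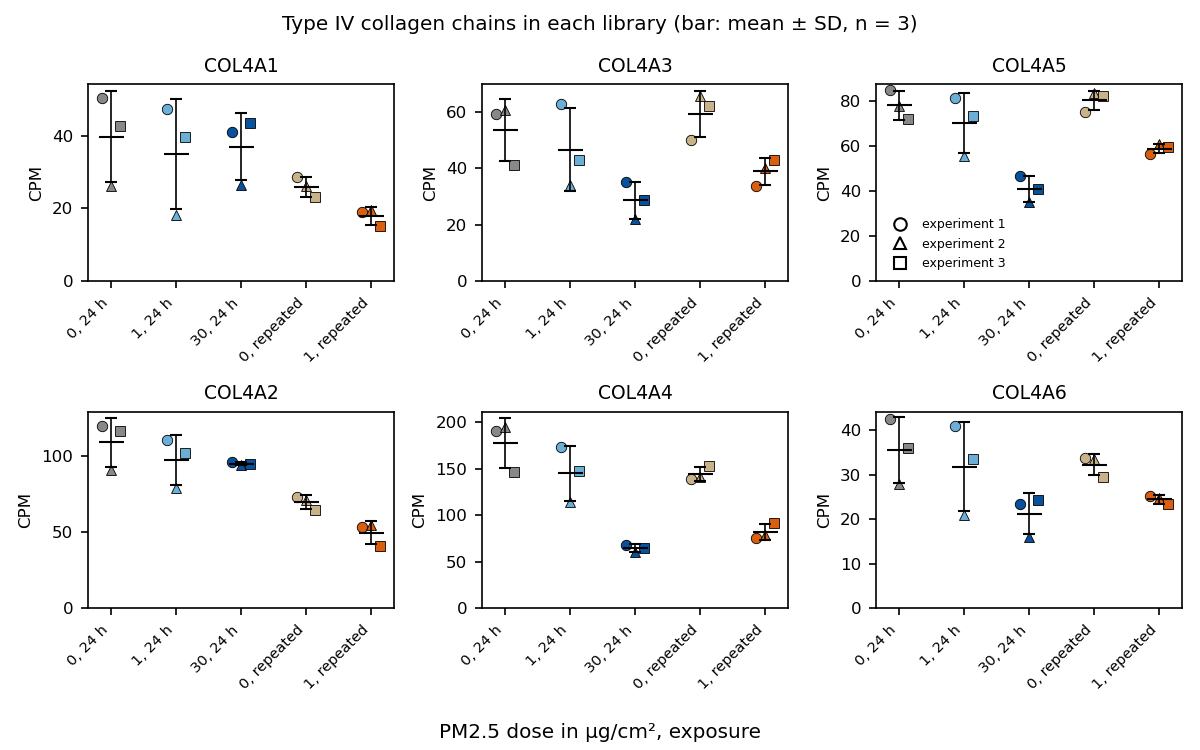
Level of the 6 type IV chains in each library, in CPM, with 1 symbol per experiment and bars for the mean ± SD of 3 libraries. COL4A3, COL4A4, COL4A5 and COL4A6 have all 30 µg/cm2 libraries below all 24-h controls, whereas COL4A1 and COL4A2 overlap.

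Among fibrillar chains, both chains of the common type V trimer were lower after 30 µg/cm2, and those of types I and III were not called in edgeR's main fit. COL5A1 had 49.1, 61.0 and 44.2 CPM in the 24-h controls, 45.4, 41.7 and 36.5 CPM after 1 µg/cm2 and 27.6, 27.0 and 24.5 CPM after 30 µg/cm2. Repeated-protocol levels were 74.7, 71.8 and 68.9 CPM in controls and 41.8, 39.1 and 38.7 CPM after PM2.5. Neither the 30 µg/cm2 nor the repeated PM2.5 libraries overlapped their controls. COL5A1 was 1.95-fold lower after 30 µg/cm2 (-0.96 ± 0.13, edgeR adjusted p = 0.000372) and 1.80-fold lower after repeated exposure (-0.85 ± 0.13, edgeR adjusted p = 0.0255). The repeated call was lost when any 1 of the 6 libraries of that protocol was left out (edgeR adjusted p of 0.0862 to 0.149, log2 fold-change -0.89 to -0.82).

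COL5A2 had 28.4, 43.1 and 26.6 CPM in the 24-h controls, 31.5, 36.2 and 31.9 CPM after 1 µg/cm2 and 11.9, 16.1 and 13.7 CPM after 30 µg/cm2. Libraries at 30 µg/cm2 were below all others of the protocol, 2.35-fold below the control (-1.23 ± 0.17, edgeR adjusted p = 0.000535) and 2.38-fold below 1 µg/cm2 (-1.25 ± 0.17, edgeR adjusted p = 0.000646). After repeated exposure it had 15.2, 13.6 and 13.97 against 21.1, 20.5 and 19.0 CPM, without overlap, at -0.50 ± 0.17 (edgeR adjusted p = 0.251). The FPKM of COL5A1 per FPKM of COL5A2 was 1.024 ± 0.106 in the 24-h control and 2.27 ± 0.0411 in the repeated control, with no overlap, and 1.79 ± 0.0448 after repeated PM2.5. COL5A3, the third chain of type V, stayed under 3 CPM in all libraries, at a log2 fold-change of 0.09 ± 0.31 after 30 µg/cm2.

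COL1A1 and COL1A2, the chains of type I collagen, pointed in opposite directions at 30 µg/cm2 without either being called in edgeR's main fit. COL1A1 had 41.2, 47.7 and 37.1 CPM in the 24-h controls and 22.3, 47.2 and 28.7 CPM after 30 µg/cm2 (-0.36 ± 0.23, edgeR adjusted p = 0.390). Without 24-h experiment 2, COL1A1 was called lower at 30 µg/cm2 against control (19.1% of all genes were called) and against 1 µg/cm2 (17.3%). COL1A2 had 17.9, 17.3 and 16.8 CPM against 16.3, 29.7 and 21.2 CPM (0.37 ± 0.23, edgeR adjusted p = 0.373). Their ratio in FPKM was 2.51 to 3.14 in the 24-h controls and 1.54 to 1.80 after 30 µg/cm2, without overlap, with means of 2.76 ± 0.335 and 1.63 ± 0.151. COL3A1, the chain of type III collagen, stood at 5.27, 6.69 and 6.66 CPM and at 6.25, 11.5 and 8.38 CPM (0.49 ± 0.24, edgeR adjusted p = 0.243). In all 3 chains, experiment 2 was the highest of the 30 µg/cm2 libraries. COL27A1 had 19.8, 5.65 and 13.9 CPM in the 24-h controls and 28.5, 9.64 and 25.4 CPM after 30 µg/cm2. It was higher than its own control in each experiment, by 0.52 to 0.87 on the log2 scale, but was not called in edgeR's main fit (edgeR adjusted p = 0.455). It was called with the replicate block (edgeR adjusted p = 0.00080) and in the fit without 24-h experiment 2. Of the 10 tested fibrillar chains, 2 were called at 30 µg/cm2 and 1 after repeated exposure, at medians of -0.34 and -0.46.

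COL8A1 had the highest level of the chains, and its 24-h control libraries differed between experiments. Its control libraries at 24 h held 1133, 298 and 1057 CPM, so experiment 2 stood far below the other two. After 1 µg/cm2 it had 436, 186 and 436 CPM, and after 30 µg/cm2 286, 211 and 285 CPM. The 30 µg/cm2 libraries lay below all controls, and each 1 µg/cm2 library lay below the control of its own experiment. COL8A1 was 3.19-fold lower after 30 µg/cm2 (-1.67 ± 0.40, edgeR adjusted p = 0.0165), and within experiments the log2 ratio was -1.99, -0.50 and -1.89. The call was lost without control experiment 1 (edgeR adjusted p = 0.0616) or 3 (0.0601), or exposed experiment 1 (0.0528) or 3 (0.0580). At 1 µg/cm2 the log2 fold-change was -1.23 ± 0.40, which was not called in edgeR's main fit. It was called with the replicate block (-1.15, edgeR adjusted p = 0.0323), without 24-h experiment 2 and with no filter on low counts. COL8A1 in the repeated protocol had 206, 196 and 194 CPM in controls and 133, 131 and 149 CPM after PM2.5, without overlap (-0.53 ± 0.39, edgeR adjusted p = 0.646). Within these experiments the log2 ratio was -0.63, -0.59 and -0.38. The SE and p use the spread over all 15 libraries, those of the 24-h protocol included. COL8A2, the other chain of type VIII collagen, stayed under 6 CPM. It had 2.62, 5.45 and 3.34 CPM after 1 µg/cm2 and 0.920, 1.46 and 1.25 CPM after 30 µg/cm2, and was called lower between these doses (-1.65 ± 0.48, edgeR adjusted p = 0.0429), a call that was lost in 10 of the 15 fits that leave out 1 library (edgeR adjusted p of 0.0589 to 0.166). In the 24-h control COL8A2 had 0.957 to 4.66 CPM, which overlapped both doses. Against that control, the log2 fold-change was -0.92 ± 0.48 at 30 µg/cm2 (edgeR adjusted p = 0.268) and 0.72 at 1 µg/cm2, with neither called in edgeR's main fit.

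COL12A1, a FACIT collagen on the surface of type I fibrils, had 113, 85.9 and 81.4 CPM in the 24-h controls, 101, 46.8 and 82.8 CPM after 1 µg/cm2 and 44.5, 29.9 and 38.1 CPM after 30 µg/cm2. The 30 µg/cm2 libraries were below all others of the protocol, 2.495-fold below control (-1.32 ± 0.25, edgeR adjusted p = 0.00396). After repeated exposure it had 33.9, 35.7 and 48.1 against 58.8, 61.9 and 65.0 CPM, without overlap, at -0.66 ± 0.24. This was not called in edgeR's main fit (edgeR adjusted p = 0.296) but was called with the replicate block (edgeR adjusted p = 0.0130). The fits with only the libraries of the comparison and without 24-h experiment 2 also called it.

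COL16A1, another FACIT collagen, differed in direction between exposures. It had 15.7, 15.1 and 16.0 CPM in the 24-h controls, 20.5, 23.5 and 17.3 CPM after 1 µg/cm2 and 10.4, 10.4 and 8.43 CPM after 30 µg/cm2. All 1 µg/cm2 libraries lay above the controls and all 30 µg/cm2 libraries below them. It was 1.60-fold lower after 30 µg/cm2 (-0.68 ± 0.16, edgeR adjusted p = 0.0161), and 2.10-fold lower than at 1 µg/cm2 (-1.07 ± 0.16, edgeR adjusted p = 0.00118). The call at 30 µg/cm2 was lost without control experiment 3 (edgeR adjusted p = 0.0506) or exposed experiment 3 (0.0888). Against control, the value at 1 µg/cm2 was 0.39 ± 0.16 and was not called. In the repeated protocol its level was 11.4, 10.1 and 10.6 CPM in controls and 15.2, 13.5 and 10.3 CPM after PM2.5, which overlapped (0.28 ± 0.16, edgeR adjusted p = 0.526). Of the 6 tested FACIT chains, 2 were called at 30 µg/cm2 and 0 after repeated exposure. COL9A3 of type IX had 14.1, 26.7 and 13.0 CPM against 11.9, 11.2 and 10.9 CPM after 30 µg/cm2 (-0.66 ± 0.27, edgeR adjusted p = 0.149).

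COL18A1, the basement membrane chain from whose end endostatin is released, was the 1 chain called higher after PM2.5 in edgeR's main fit. The replicate block also called COL6A3 and COL27A1 higher at 30 µg/cm2. Without 24-h experiment 2, COL9A2, COL15A1 and COL27A1 were also called higher at 30 µg/cm2 against control (19.1% of all genes were called). In the same fit COL8A2 and COL25A1 were called higher at 1 µg/cm2 (2.11% of all genes). COL18A1 had 10.3, 9.79 and 7.62 CPM in the 24-h controls, 13.0, 10.3 and 11.2 CPM after 1 µg/cm2 and 16.9, 15.6 and 17.0 CPM after 30 µg/cm2. The 30 µg/cm2 libraries lay above all others of the protocol, 1.79-fold above control (0.84 ± 0.18, edgeR adjusted p = 0.00826). With only the 6 libraries of this comparison in the fit, the edgeR adjusted p was 0.0738. In the repeated protocol, it had 13.3, 12.5 and 10.9 CPM in controls and 8.23, 7.65 and 5.37 CPM after PM2.5. All exposed libraries were lower there, at -0.79 ± 0.18, which was not called in edgeR's main fit (edgeR adjusted p = 0.0975). It was called with the replicate block (edgeR adjusted p = 0.00451), and also by DESeq2 and edgeR's likelihood ratio test. The fits with only the libraries of the comparison and without 24-h experiment 2 called it too. COL18A1 shares 16.4% of its exon bases with SLC19A1 on the other strand, and whether reads were counted by strand is not given in the sources used here. SLC19A1 had log2 fold-changes of -0.25 at 30 µg/cm2 and 0.17 after repeated exposure, with neither called.

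Of the other chains of the basement membrane zone, COL7A1 had 132, 152 and 102 CPM in the 24-h controls and 107, 79.2 and 89.1 CPM after 30 µg/cm2, which overlapped (-0.49 ± 0.18, edgeR adjusted p = 0.109). After repeated exposure it had 90.4, 109 and 80.5 against 111, 124 and 108 CPM (-0.29 ± 0.18, edgeR adjusted p = 0.564). COL15A1 stayed under 3 CPM, at 1.79, 1.06 and 1.88 CPM in the repeated controls and 0.324, 0.462 and 1.06 CPM after PM2.5 (-1.35 ± 0.62, edgeR adjusted p = 0.412, and 0.0475 with the block, which called it).

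**Figure D5:**
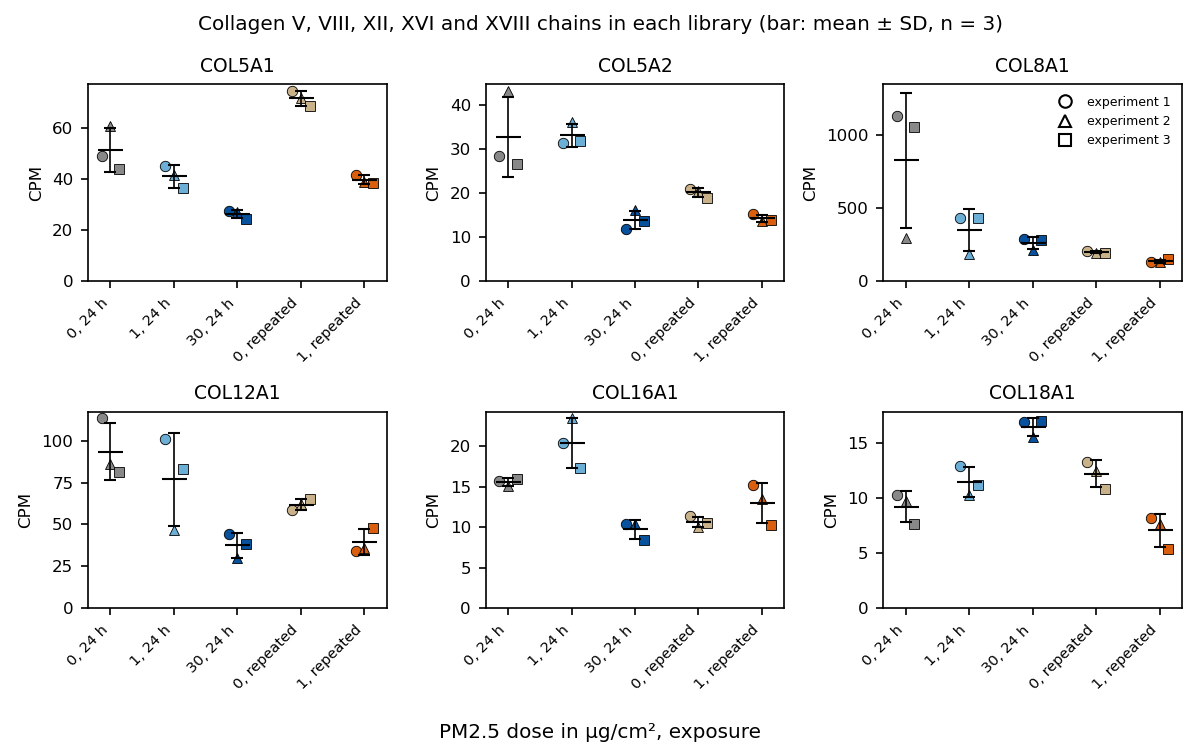
Level of COL5A1, COL5A2, COL8A1, COL12A1, COL16A1 and COL18A1 in each library, in CPM, with 1 symbol per experiment and bars for the mean ± SD of 3 libraries. COL18A1 is highest at 30 µg/cm2 and lowest after repeated PM2.5, and experiment 2 of COL8A1 lies at 298 CPM in the 24-h control where the others are at 1057 and 1133 CPM.

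Type XVII, type VI and type XXV complete the tested classes. COL17A1 had 91.3, 46.5 and 85.0 CPM in the 24-h controls and 62.3, 35.6 and 63.4 CPM after 30 µg/cm2 (-0.47 ± 0.32, edgeR adjusted p = 0.414). Experiment 2 was lowest in each 24-h condition, and each exposed library lay below its own control. After repeated exposure COL17A1 had 91.5, 90.2 and 92.7 against 137, 141 and 134 CPM, without overlap but under the threshold of 0.6 (-0.59 ± 0.31, edgeR adjusted p = 0.496). Within these experiments the log2 ratio was -0.58, -0.64 and -0.53. The SE and p use the spread over all 15 libraries and not that of the repeated protocol alone. COL25A1, a transmembrane collagen, had 4.94, 10.5 and 2.94 CPM in the 24-h controls, 9.15, 9.22 and 7.48 CPM after 1 µg/cm2 and 0.822, 2.67 and 1.10 CPM after 30 µg/cm2. Libraries at 30 µg/cm2 were below all others of the protocol, 3.96-fold below control (-1.98 ± 0.47, edgeR adjusted p = 0.0158), a call that was lost without control experiment 2 (log2 fold-change -1.36, edgeR adjusted p = 0.0645) or exposed experiment 1 (0.0779) or 3 (0.0819). Without exposed experiment 2, the log2 fold-change of COL25A1 was -2.68 (edgeR adjusted p = 0.00240). Without all libraries of 24-h experiment 2 it was -2.08 (edgeR adjusted p = 0.000127), and the call also held with the replicate block. After repeated exposure COL25A1 had 1.35 ± 0.305 against 2.73 ± 0.783 CPM (SD), not called in edgeR's main fit or with the replicate block. It was called with only the libraries of that comparison (6.23% of all genes) and without 24-h experiment 2 (6.03%).

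None of the 3 tested type VI chains, which assemble together, were called in a PM2.5 comparison by edgeR's main fit. COL6A1 had 78.8, 113 and 76.7 CPM in the 24-h controls and 82.3, 105 and 85.3 CPM after 30 µg/cm2, with overlap (0.02 ± 0.19). COL6A3 had 9.39, 8.19 and 8.47 CPM against 9.40, 16.6 and 14.2 CPM (0.63 ± 0.24, edgeR adjusted p = 0.129), and was called higher with the replicate block (edgeR adjusted p = 0.0290). After repeated exposure COL6A1 had 90.0, 85.9 and 63.8 against 103, 100.5 and 97.8 CPM (-0.33 ± 0.19, edgeR adjusted p = 0.540).

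The difference between responses was tested as an interaction, the response to repeated 1 µg/cm2 minus a response at 24 h. Against the response to a single 30 µg/cm2, 2 chains were called (1.82% of all genes). COL18A1 rose at 30 µg/cm2 and had a negative value after repeated exposure, a difference of -1.63 ± 0.25 (edgeR adjusted p = 0.00571) that was called in each of the 25 other fits. COL16A1 fell at 30 µg/cm2 and had a positive value after repeated exposure, a difference of 0.97 ± 0.23 (edgeR adjusted p = 0.0493). With the replicate block 9 chains differed (14.6% of all genes): COL4A4, COL5A2, COL8A1, COL12A1 and COL16A1 with a higher value after repeated exposure, and COL6A3, COL15A1, COL18A1 and COL27A1 with a lower one. For COL4A4 the difference was 0.64 ± 0.22 (edgeR adjusted p = 0.164, and 0.0212 with the block). Against the response to a single 1 µg/cm2, 0 chains and 0% of all genes were called by edgeR, with 6 chains at an unadjusted p under 0.05. DESeq2 called COL18A1 there (0.505% of the genes to which it gave an adjusted p), and so did edgeR with the replicate block (-1.12, edgeR adjusted p = 0.0386, where 1.03% of all genes were called).

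The repeated control was compared with the 24-h control to see how the levels of unexposed cells differed between protocols. In these controls the mesenchymal markers summed to 340 to 377 CPM against 564 to 878 CPM and the epithelial markers to 2922 to 3629 CPM against 2383 to 3138 CPM. Single markers went both ways: of 12 mesenchymal markers 2 were called higher and 4 lower, and of 10 epithelial markers 4 higher and 3 lower. The part of these markers in the result was not tested. The experiments are separate, and by the study's methods cells were plated at a lower density for the repeated protocol. Time in culture, plating density, handling and batch therefore cannot be told apart. Of the 32 chains, 7 were called, 21.9%, the same share as over all genes (21.9%). COL8A1 was 4.18-fold lower in the repeated control (-2.06 ± 0.41, edgeR adjusted p = 0.00202). COL4A2 was 1.57-fold lower (-0.65 ± 0.15, edgeR adjusted p = 0.00637) and COL5A2 1.62-fold lower (-0.69 ± 0.17, edgeR adjusted p = 0.00832). COL9A3, at 9.08, 9.42 and 9.54 against 14.1, 26.7 and 13.0 CPM, was 1.91-fold lower (-0.94 ± 0.27, edgeR adjusted p = 0.0187), and COL5A3, at 1.03, 0.836 and 1.04 against 1.90, 2.12 and 1.59 CPM, was 1.93-fold lower (-0.95 ± 0.32, edgeR adjusted p = 0.0391). COL17A1 was 1.85-fold higher (0.89 ± 0.32, edgeR adjusted p = 0.0495). COL2A1, the chain of cartilage collagen, was 3.57-fold higher (1.84 ± 0.61, edgeR adjusted p = 0.0366), from 2 to 12 counts per library in the 24-h control to 18 to 29 in the repeated control. Of the 24-h counts, 12 were in experiment 2, against 3 and 2 in the others, and without 24-h control experiment 2 the log2 fold-change of COL2A1 was 3.22 (edgeR adjusted p = 0.00105). Without the libraries of 24-h experiment 2, COL5A2 (log2 fold-change -0.46) and COL9A3 (-0.55) fell under the threshold of size, while 12 of 33 tested chains were called in all (31.0% of all genes in that fit). COL17A1 lost its call in 12 (log2 fold-change 0.62 without 24-h control experiment 2), COL2A1 and COL5A3 in 8 and COL9A3 in 4 of the 15 fits that leave out 1 library, COL4A2 without repeated control experiment 3 (-0.59) and COL5A2 without 24-h control experiment 2 (-0.47).

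Other genes of the pathway, which modify, process, bind or break down collagen, were read in 8 lists of 101 genes, of which 91 were tested. After 30 µg/cm2 for 24 h, 6 were higher and 12 lower (8.07% of all genes were called in either direction), and after 1 µg/cm2 for 24 h, 1 was higher and 1 lower (0.0625% of all genes). After repeated exposure, 0 were called (0.227% of all genes) by edgeR's quasi-likelihood test, with a median log2 fold-change of -0.26 over the 91 genes. With the replicate block (4.39% of all genes), 5 of 15 basement membrane partners, 3 of 13 tested fibril partners and 2 of 9 tested receptors were called lower. So was 1 gene each of propeptide removal and crosslinking, while the other lists had 0 called and no list had a gene called higher. Among the 7 crosslinking enzymes, 2 fell at 30 µg/cm2. LOX, lysyl oxidase, which starts the crosslinks between collagen molecules, went from 90.9 ± 16.0 CPM to 25.9 ± 3.16 CPM (-1.81 ± 0.14, edgeR adjusted p = 1.18e-05) and also fell after 1 µg/cm2, to 50.1 ± 3.50 CPM (-0.86 ± 0.14, edgeR adjusted p = 0.0484). LOXL2 went from 65.9 ± 3.21 to 40.6 ± 7.46 CPM (-0.70 ± 0.14). Of 15 genes of prolyl and lysyl hydroxylation and glycosylation, 2 fell at 30 µg/cm2, the hydroxylases PLOD2 (-0.74 ± 0.20) and P3H2 (-0.72 ± 0.18). Of 13 genes of folding and secretion, the prolyl isomerase FKBP7 fell (-0.85 ± 0.21). Of 9 tested genes of propeptide removal, the proteases TLL1 (-2.13 ± 0.53) and ADAMTS3 (-1.03 ± 0.23) fell.

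Receptors moved both ways at 30 µg/cm2, with 2 of 9 tested higher and 2 lower. ITGA11 (1.90 ± 0.30) and DDR2 (1.72 ± 0.28) rose, and ITGA1 (-0.99 ± 0.17) and DDR1 (-0.69 ± 0.14) fell. ITGA1 and ITGA11 are integrin chains that bind collagen, and DDR1 and DDR2 are collagen-activated receptor kinases. ITGA11 also rose after 1 µg/cm2, from 1.53 ± 0.388 to 5.70 ± 1.90 CPM (1.89 ± 0.30, edgeR adjusted p = 0.0409). Of 15 basement membrane partners, the laminin chains LAMA1 (1.55 ± 0.35) and LAMB3 (1.93 ± 0.45) rose and LAMA5 (-1.42 ± 0.27) fell at 30 µg/cm2. Of 13 tested fibril partners, SPARC, which binds collagen during its export and assembly, fell from 537 ± 59.1 to 231 ± 48.2 CPM (-1.22 ± 0.14, edgeR adjusted p = 0.000133). Of 10 tested genes of collagen breakdown, the collagenase MMP1 rose from 1.60 ± 0.291 to 5.85 ± 0.634 CPM (1.85 ± 0.38). TIMP1 (1.42 ± 0.28) rose and TIMP2 (-1.38 ± 0.14) fell, both inhibitors of matrix metalloproteinases.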

How the data were processed

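RNA was sequenced from 15 BEAS-2B libraries (poly-A selected, single-end reads of 50 bases). The authors deposited one table of raw counts per gene with the exon length of each gene. According to the study's methods, reads were aligned to GRCh38 with STAR and counted with featureCounts. The submitters' processing notes name hg19, but the coordinates in the table are those of GRCh38. The annotation, strand and options of counting are not given in the sources used here. Symbols were added from a table of gene IDs (57437 of 58219 genes matched).

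Samples were grouped by their labels. The collagen chains, their classes and the gene lists were chosen with earlier results of these data known. Counts were filtered with filterByExpr, scaled by the trimmed mean of M-values and fitted with edgeR 4.0.16 (R 4.3.3) in its earlier quasi-likelihood mode, with 1 mean per condition. SEs were obtained from each F statistic, as the size of the fold-change on the log2 scale over the root of F. Levels and test values are given for each chain called in any of the first 5 comparisons and for the 8 chains of highest mean FPKM, though not for every condition of each. At most 4 called genes are named per list and comparison. Alternatives were RLE scaling, other filters, edgeR's current mode and likelihood ratio test, DESeq2 1.42.0, fewer libraries, a term for the series of sample IDs, and the adjusted p alone.

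The series record gives the replicate number as experimental batch, which pairs samples within a protocol. Libraries of the same number deviated together from their group means (r of 0.201 to 0.721 in the single and 0.121 to 0.181 in the repeated protocol, over genes). The number was therefore also fitted as a block within each protocol. No such fit can be made between the controls of both protocols. The main fit was run on simulated counts for 30 µg/cm2 against control, where it called 168 of 200 changed genes and 8 others. These counts held no differences between experiments, so the result does not cover them. Promoter sequences and motifs came from RefSeq on GRCh38. COL14A1, COL1A1, COL1A2, COL20A1, COL22A1, COL2A1, COL3A1, COL5A2, COL6A1, COL6A5, COL8A1 and COL9A3 had no entry. The experiments were independent cultures of 1 line. In the main fit, p-values measure the spread between experiments within conditions, estimated over all 15 libraries. With the replicate block, they measure the spread that is left after the level of each experiment is taken out.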

Additional observations from a re-analysis of the deposited data

Results flagged for a closer look

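The response of 2 collagen chains differed between exposures by the test of the difference itself. For COL18A1, the response to repeated 1 µg/cm2 minus that to a single 30 µg/cm2 was -1.63 on the log2 scale (edgeR adjusted p = 0.00571). All its 30 µg/cm2 libraries lay above all their controls. All its repeated PM2.5 libraries lay below all their controls, as did those of 21.6% of all tested genes. For COL16A1 the same difference was 0.97 (edgeR adjusted p = 0.0493), a call that was lost in 12 of the 15 fits that leave out 1 library, at edgeR adjusted p-values of 0.0539 to 0.152.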

How the results depend on the processing

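Leaving out each library in turn gave 6 to 11 called chains for 30 µg/cm2 against control, 0 to 1 for 1 µg/cm2, 5 to 9 for 30 against 1 µg/cm2 and 0 to 2 for repeated exposure. It gave 2 to 9 for the controls of both protocols, 0 to 0 for the repeated against the single 1 µg/cm2 response and 1 to 3 for the repeated against the 30 µg/cm2 response. With only the libraries of the comparison, 5, 2 and 6 chains were called for 30 against 0, 30 against 1 and repeated exposure, in place of 10, 8 and 2 (2.23%, 0.918% and 6.23% of all genes in those fits). The calls lost at 30 against 0 were those of COL4A3, COL8A1, COL16A1, COL18A1 and COL25A1, at edgeR adjusted p-values of 0.0738 to 0.142. Without 24-h experiment 2, a setting chosen with earlier results of these data known, 33 chains were tested. Of these, 15 were called for 30 µg/cm2 against control, 4 higher and 11 lower (19.1% of all genes in that fit). For 1 µg/cm2, 3 were called, 2 higher and 1 lower (2.11%). A further 13 were called for 30 against 1 µg/cm2 (17.3%), 7 for repeated exposure (6.03%) and 12 for the controls (31.0%). For the difference of the repeated from the single 1 µg/cm2 (9.84%) and 30 µg/cm2 response (21.6%), 9 each were called. The replicate block gave 1 called chain for 1 µg/cm2, 6 for repeated exposure, 1 and 9 for the differences of the repeated from the single 1 and 30 µg/cm2 responses, and changed no count of the other comparisons by more than 1.5 times. With no filter on low counts, 1 chain was called for 1 µg/cm2 and 1 for the repeated against the 30 µg/cm2 response, and a term for the sample ID series also gave 1 for the latter. DESeq2 called 1 chain, COL18A1, for the repeated against the single 1 µg/cm2 response. The cause of these changes was not tested. RLE scaling, a filter at 1 CPM, edgeR's current mode, the likelihood ratio test and the adjusted p alone kept each count within 1.5 times (COL17A1 lost its call between the controls under RLE, edgeR adjusted p = 0.0552), and no called value changed sign under any alternative. The collagen share of reads and the levels of the 8 most abundant chains moved by less than 1 SD; the settings for the levels were chosen after seeing the data. Chains under 1 CPM, such as COL2A1, are limited by depth.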
